A study of Mus musculus with 12 samples.

Results

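Fabp7, Nr2e1, Hopx, Prom1, Vcam1, Thbs4, Pou3f2, Rfx4, Pax6 and Gpm6a are 10 genes known from neural stem cells and radial glia, the set that accompanies Sox2 in these cells. They were taken by gene symbol from the deposited expression table, and all 10 were found among its 55862 genes. The 4 groups were primary mouse astrocytes, sphere cells derived from them, and 2 preparations of neural progenitor cells, with 3 RNA-seq samples each.

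The labels give the strain as C57BL/6 for every group, the study's methods give C57BL/6J for the mice behind both NPC groups, and neither names a transgene or deletion. The astrocytes (AST) came from the cerebral cortex of newborn animals, were grown attached in medium with serum, and served at day 0 as the negative control. The sphere cells (A-iSC) were the same kind of astrocytes after 5 days in suspension above agarose. P56-NPC was a cell suspension from the subependymal zone of adult mice (postnatal day 56) and P0-NPC one from the hippocampus at postnatal day 0, both used as positive controls. Neither suspension was described as sorted, so each could hold every cell type of its tissue. The study's methods speak in general of 3 independent experiments, without tying them to the RNA-seq samples. The sources did not state whether the 3 samples of a group came from separate animals or cultures, so the p-values given here measure only the spread between these samples. Age and brain region differ together between the NPC groups and cannot be told apart.

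Neural stem cells of the adult brain are slowly dividing cells with astrocyte features that line the lateral ventricle or lie in the hippocampal dentate gyrus, and they descend from the radial glia of the embryo. A small set of transcription factors keeps them undifferentiated, an intracellular lipid carrier marks them, and membrane and matrix proteins link them to their niche. None of these genes belongs to stem cells alone, since astrocytes, ependymal cells or neurons share most of them.

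The samples held between 17077780 and 24452419 recovered fragments, and expression is given as FPKM, fragments scaled to gene length and to a library size that the authors had set. A count of 3 fragments in a gene of 1 kb was worth between 0.103 and 0.187 FPKM. The mitochondrial share of fragments was 16.5% to 17.6% in P56-NPC and 2.94% to 7.03% in the other groups. A-iSC replicate 3 stood apart within its group. It held the highest A-iSC value for 9 of the 10 genes, against 43.9% of the 13207 genes with an A-iSC mean of at least 1 FPKM. Of the 10, 3 were more than 1.5 times the mean of the other A-iSC samples, against 13.7% of those genes. Thbs4 is counted among the 10 but lies under that level. A-iSC differences and ratios printed here are also given without this sample where they then changed call or direction, or moved by more than 1.5 times.

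**Figure D1:**
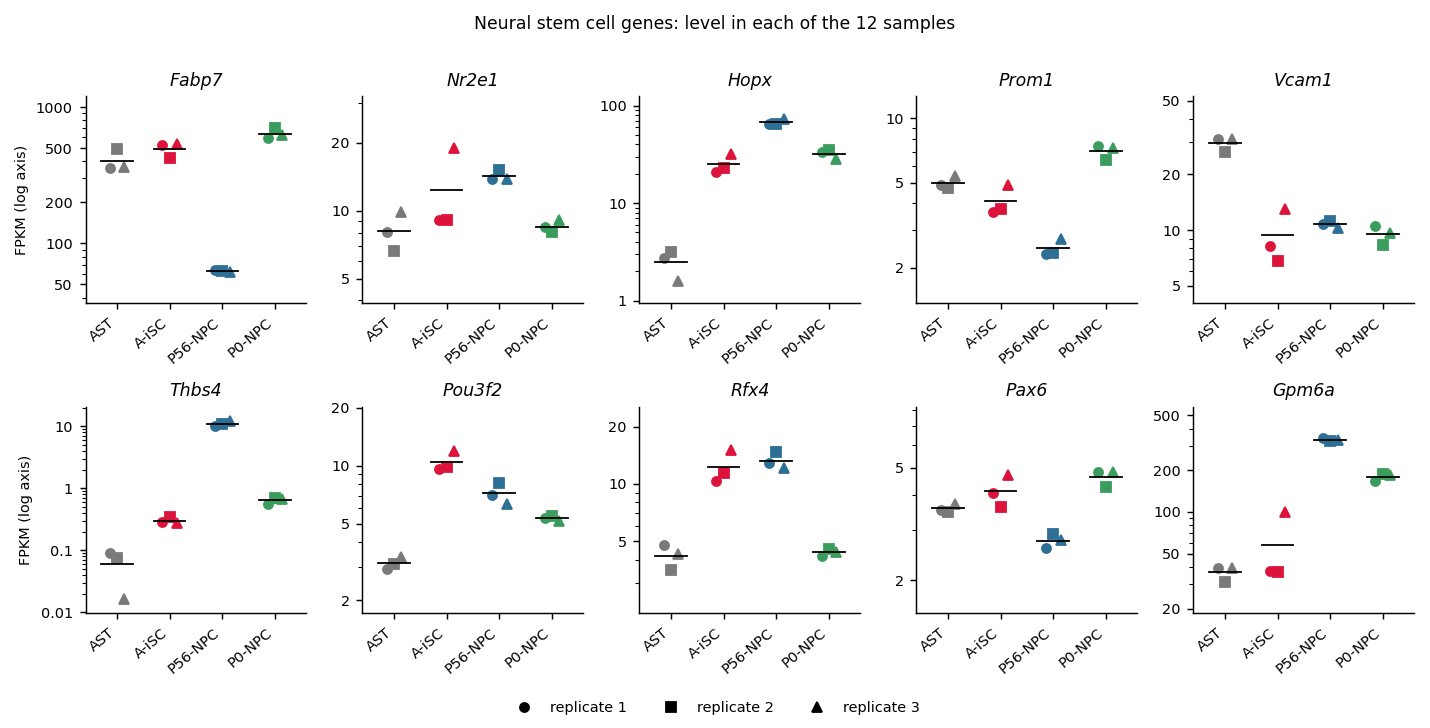
Expression of the 10 genes in each sample on a logarithmic axis of FPKM, with points for the 3 samples and a bar for the mean of each group. Fabp7 lies near 63 FPKM in P56-NPC and above 350 in the other groups, Hopx is lowest in AST, and the third A-iSC sample lies above the others for Gpm6a and Nr2e1.

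Hopx encodes a small homeodomain protein that does not bind DNA itself and is found in quiescent stem cells of the dentate gyrus. It lies on chromosome 5 from 77086988 to 77115121 of GRCm38, on the minus strand. Its expression was 2.75, 3.19 and 1.60 FPKM in AST and 20.7, 22.7 and 31.6 FPKM in A-iSC. P56-NPC samples had 64.9, 64.4 and 73.1 FPKM and P0-NPC samples 33.1, 35.0 and 28.5 FPKM. Every A-iSC sample lay above every AST sample and below every P56-NPC sample, while the A-iSC and P0-NPC ranges overlapped. The mean was 9.96 times higher in A-iSC than in AST, a difference of 2.89 ± 0.22 (SE, n = 3 per group) on the log2(FPKM + 1) scale, with an adjusted p of 4.85e-05 (limma, Benjamini-Hochberg over all genes). In P56-NPC it exceeded A-iSC by 2.69 times (adjusted p = 0.000289, limma). The difference from P0-NPC, -0.37 with a 95% interval from -0.77 to 0.03, did not pass the test, but it did so at -0.54 without A-iSC replicate 3 (adjusted p = 0.00258).

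Pou3f2, also called Brn2, is a POU-domain factor of neural progenitors and upper-layer neurons, at chromosome 4 from 22482780 to 22488366 on the minus strand. It was at 2.91, 3.08 and 3.37 FPKM in AST and rose to 9.56, 9.79 and 11.9 FPKM in A-iSC. P56-NPC samples had 7.06, 8.12 and 6.34 FPKM and P0-NPC samples 5.32, 5.50 and 5.19 FPKM. No groups overlapped, and of the 10 genes it was the one with its highest mean in A-iSC. The A-iSC mean was 3.34 times that of AST, with a log2 difference of 1.46 ± 0.12 and an adjusted p of 6.3e-05 (limma). Against P56-NPC the ratio was 1.45 (log2 difference 0.48 ± 0.13, adjusted p = 0.0136, limma), a call that was lost without P56-NPC replicate 1 (0.0528) or replicate 3 (0.0568). Against P0-NPC it was 1.95, with an adjusted p of 0.000387.

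Rfx4 encodes a winged-helix factor of the RFX family that acts on cilium genes and on dorsal brain development, at chromosome 10 from 84756062 to 84906538 on the plus strand. It was at 4.75, 3.55 and 4.29 FPKM in AST, 10.4, 11.4 and 15.0 FPKM in A-iSC, 12.9, 14.8 and 12.1 FPKM in P56-NPC and 4.19, 4.57 and 4.37 FPKM in P0-NPC. The groups thus formed a high pair, A-iSC and P56-NPC, and a low pair, AST and P0-NPC, with overlap within each pair and none between them. A-iSC exceeded AST by 2.92 times (log2 difference 1.34 ± 0.16, adjusted p = 0.000397, limma) and P0-NPC by 2.8 times (1.29 ± 0.14, adjusted p = 0.000129). Within the high pair the log2 difference, A-iSC minus P56-NPC, was -0.11 with a 95% interval from -0.47 to 0.24. Without A-iSC replicate 3 it was -0.26 and not called (adjusted p = 0.0526, limma). Under library-size scaling it turned to 0.40 and was called (adjusted p = 0.0427), but it was -0.09 there relative to the median of all genes. Within the low pair P0-NPC minus AST was 0.06 with an interval from -0.19 to 0.30. It turned to -0.03 under upper-quartile scaling and was 0.29 and called under library-size scaling (adjusted p = 0.0449). Relative to the median of all genes these were 0.12, 0.13 and 0.09.

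The start regions of Hopx, Pou3f2 and Rfx4 are shown because these are the members that rose in A-iSC, as windows of 250 bases before to 50 after a RefSeq transcript start on GRCm38.p6. Of the 10 genes, 9 had such windows, 14 in all, and Vcam1 had no entry. Capitals mark matches, on either strand, to 6 short motifs. The CCAAT box was searched by those letters. Part of the X-box that RFX proteins bind was searched as GTTGCC, and the core bound by RBPJ, the Notch effector, as TGGGAA. The TATA box was searched as TATAAA, a site of SOX factors as CATTGTT, and the octamer of POU factors as ATGCAAAT.
Hopx, start 1, chr5:77115074-77115373, minus strand: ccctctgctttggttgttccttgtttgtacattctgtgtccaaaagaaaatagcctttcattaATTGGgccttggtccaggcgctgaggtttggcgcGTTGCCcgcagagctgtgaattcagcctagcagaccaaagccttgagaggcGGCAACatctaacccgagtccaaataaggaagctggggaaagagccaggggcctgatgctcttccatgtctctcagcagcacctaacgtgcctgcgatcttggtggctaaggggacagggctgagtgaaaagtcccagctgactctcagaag
Hopx, start 2, chr5:77095218-77095517, minus strand: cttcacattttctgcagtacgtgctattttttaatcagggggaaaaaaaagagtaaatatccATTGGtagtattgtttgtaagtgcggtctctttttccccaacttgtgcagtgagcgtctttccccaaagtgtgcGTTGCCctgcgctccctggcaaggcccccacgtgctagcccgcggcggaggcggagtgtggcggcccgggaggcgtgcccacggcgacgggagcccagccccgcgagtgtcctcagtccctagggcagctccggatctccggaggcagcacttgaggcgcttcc
Pou3f2, chr4:22488317-22488616, minus strand: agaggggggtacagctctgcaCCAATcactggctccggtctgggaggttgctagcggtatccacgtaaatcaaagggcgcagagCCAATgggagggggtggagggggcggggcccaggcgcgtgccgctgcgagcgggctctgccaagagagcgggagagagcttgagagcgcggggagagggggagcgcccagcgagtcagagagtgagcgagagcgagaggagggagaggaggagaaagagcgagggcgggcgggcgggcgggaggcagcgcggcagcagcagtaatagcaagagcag
Rfx4, start 1, chr10:84755798-84756097, plus strand: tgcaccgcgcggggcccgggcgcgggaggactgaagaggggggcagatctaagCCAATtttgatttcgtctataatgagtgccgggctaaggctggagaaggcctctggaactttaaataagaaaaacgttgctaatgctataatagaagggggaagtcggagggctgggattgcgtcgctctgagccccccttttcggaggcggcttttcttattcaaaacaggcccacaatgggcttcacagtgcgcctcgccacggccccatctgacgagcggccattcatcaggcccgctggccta
The windows held 8 CpG for Hopx start 1, 21 for start 2, 24 for Pou3f2 and 20 for Rfx4 start 1, against a median of 7 in all 32851 windows. A further window, Rfx4 start 2 at chr10:84837898-84838197, is not printed. It held 3 CpG and none of the 6 motifs. CCAAT was in 7 of the 14 windows and in 37.4% of all windows, and GTTGCC in 4 of the 14 and in 12.5%. TGGGAA was in 5 of the 14 (25.6% of all), TATAAA in 1 (13.6%), the octamer in 1 (1.74%) and CATTGTT in 0 (3.78%). One match overlapped another, in a Pax6 window. These letters are descriptions of the windows, and no binding was measured.

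Nr2e1, or Tlx, is an orphan nuclear receptor that adult neural stem cells need to renew themselves, at chromosome 10 from 42561963 to 42583632 on the minus strand. Its values were 8.0, 6.60 and 9.85 FPKM in AST, 9.13, 9.07 and 18.9 FPKM in A-iSC, 13.8, 15.1 and 13.9 FPKM in P56-NPC and 8.43, 8.01 and 9.05 FPKM in P0-NPC. In A-iSC, 2 samples lay within the AST range and replicate 3 lay above all other samples of the series. The A-iSC and AST difference, 0.48 on the log2 scale with a 95% interval from -0.18 to 1.15, did not pass the test (adjusted p = 0.185, limma) and was 0.16 without that sample. P56-NPC exceeded AST by 1.75 times (adjusted p = 0.00129, limma). The A-iSC minus P56-NPC difference of -0.27 was not called with all samples (adjusted p = 0.402). It turned to 0.25 under library-size scaling, where it was -0.25 relative to the median of all genes. Without A-iSC replicate 3 it was -0.59 and called (adjusted p = 0.00032).

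Pax6, a paired-domain factor of cortical radial glia and of the eye, lies on chromosome 2 from 105668900 to 105697364 on the plus strand. It had the narrowest span of the 10 genes, with a ratio of 1.68 between its highest and lowest group means. AST samples had 3.55, 3.48 and 3.73 FPKM and A-iSC samples 4.06, 3.64 and 4.70 FPKM, which overlapped (log2 difference 0.16, 95% interval from -0.11 to 0.42, adjusted p = 0.284, limma). Without A-iSC replicate 3 the difference was 0.08 (adjusted p = 0.488, limma). P56-NPC samples were lower, at 2.60, 2.90 and 2.77 FPKM, and P0-NPC samples were at 4.84, 4.28 and 4.81 FPKM. P56-NPC lay below all the other groups, by 1.3 times from AST (adjusted p = 0.00675) and by 1.5 times from A-iSC (adjusted p = 0.00979).

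Fabp7, the brain lipid-binding protein that carries fatty acids in radial glia, was the most abundant of the 10 genes in AST, A-iSC and P0-NPC. It lies on chromosome 10 from 57784881 to 57788450 on the plus strand. It reached 354.6, 495.9 and 364.6 FPKM in AST, 527.5, 423.7 and 533.4 FPKM in A-iSC and 588.8, 703.9 and 619.8 FPKM in P0-NPC, against 63.6, 62.8 and 61.9 FPKM in P56-NPC. The P56-NPC samples were thus far below all the rest, and the AST and A-iSC ranges overlapped. The A-iSC minus AST difference was 0.30 on the log2 scale with a 95% interval from -0.17 to 0.76 (adjusted p = 0.239, limma). P56-NPC was 6.46 times lower than AST (adjusted p = 2.22e-06) and 7.89 times lower than A-iSC (adjusted p = 2.3e-06). In bulk samples, fewer cells of a type and less RNA per cell cannot be told apart. P0-NPC exceeded AST by 1.57 times (log2 difference 0.67 ± 0.18, adjusted p = 0.0104, limma), a call lost without AST replicate 1 (0.053), and exceeded A-iSC by 0.37 on the log2 scale (adjusted p = 0.0825), which became a call without A-iSC replicate 3 (0.0477) or with all 4 groups in the model (0.0438).

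**Figure D2:**
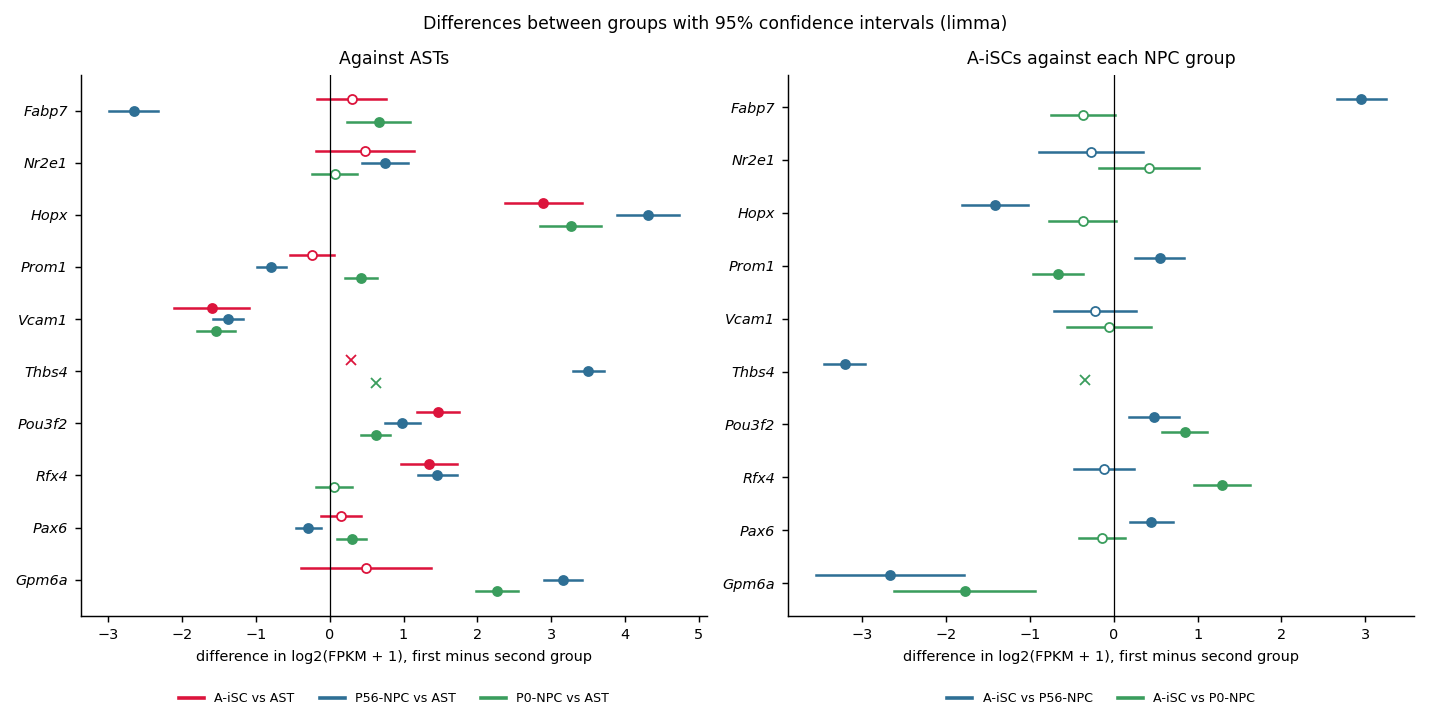
Differences in log2(FPKM + 1) for each gene with 95% confidence intervals from limma, against AST on the left and for A-iSC against each NPC group on the right. Filled points had an adjusted p under 0.05, open points did not, and crosses mark differences of genes that were under the expression filter and were not tested. Hopx, Pou3f2 and Rfx4 lie right of zero and Vcam1 left of zero in A-iSC against AST.

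Vcam1 is an immunoglobulin-family adhesion receptor that anchors stem cells in the subependymal zone and that activated endothelium also carries. It lies on chromosome 3 from 116109949 to 116129688 on the minus strand. It was at 31.1, 26.3 and 31.1 FPKM in AST and fell to 8.23, 6.84 and 13.0 FPKM in A-iSC, while P56-NPC had 10.8, 11.1 and 10.3 FPKM and P0-NPC 10.5, 8.30 and 9.68 FPKM. All AST samples lay above all other samples, and P56-NPC and P0-NPC both overlapped with A-iSC. AST exceeded A-iSC by 3.15 times (log2 difference -1.60 ± 0.22 for A-iSC minus AST, adjusted p = 0.000707, limma). AST also exceeded P56-NPC by 2.75 times and P0-NPC by 3.1 times (adjusted p = 5.64e-06 and 6.11e-06, limma). The A-iSC minus P56-NPC difference of -0.22 was not called (adjusted p = 0.378), but without A-iSC replicate 3 it was -0.46 and called (adjusted p = 0.00356). It turned to 0.28 under library-size scaling, where it was -0.21 relative to the median of all genes. The summed level of 6 pericyte and fibroblast markers was 154 to 208 FPKM in AST and 7.29 to 8.68 FPKM in A-iSC, and the 6 endothelial markers summed to 4.46 to 4.5 FPKM in AST and 2.14 to 3.22 FPKM in A-iSC, with Cldn5 at 0 in all AST samples. P56-NPC had 12.3 to 16.6 FPKM for the first list and 4.24 to 4.71 for the second, and P0-NPC 130.4 to 133.3 and 72.8 to 74.8. In AST the first sum was mostly Col1a1, with a mean of 157.7 FPKM, while Rgs5, Dcn and Lum had means of 0.311, 0.248 and 0.0374 FPKM there and of 38.6, 11.96 and 7.42 FPKM in P0-NPC. Their part in the Vcam1 result was not tested.

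Prom1, or CD133, is a membrane protein of cell protrusions used to isolate neural stem cells and also found on ependymal cells, at chromosome 5 from 43993620 to 44102032 on the minus strand. AST samples had 4.88, 4.71 and 5.40 FPKM and A-iSC samples 3.64, 3.78 and 4.87 FPKM. P56-NPC samples had 2.32, 2.35 and 2.73 FPKM and P0-NPC samples 7.46, 6.40 and 7.28 FPKM. P0-NPC lay above and P56-NPC below every other sample, and A-iSC replicate 3 reached into the AST range. The A-iSC minus AST difference was -0.24 on the log2 scale (95% interval from -0.54 to 0.06, adjusted p = 0.149, limma), and -0.35 with an adjusted p of 0.0189 without A-iSC replicate 3. A-iSC exceeded P56-NPC by 1.66 times (adjusted p = 0.00677) and P0-NPC exceeded A-iSC by 1.72 times (adjusted p = 0.0025).

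Gpm6a, a membrane glycoprotein best known from growth cones and neurites, lies on chromosome 8 from 54954843 to 55060871 on the plus strand. Its values were 39.3, 31.4 and 39.5 FPKM in AST and 37.2, 36.6 and 100.8 FPKM in A-iSC. P56-NPC samples reached 340.8, 328.1 and 330.6 FPKM and P0-NPC samples 166.8, 187.9 and 184.8 FPKM. Both NPC groups lay above every AST and A-iSC sample, and A-iSC replicates 1 and 2 lay within the AST range. The A-iSC minus AST difference was 0.49 with an interval from -0.39 to 1.37 on the log2 scale (adjusted p = 0.305, limma), and 0.01 without A-iSC replicate 3. P56-NPC exceeded AST by 9.07 times (adjusted p = 2.94e-07, limma) and P0-NPC exceeded AST by 4.9 times (adjusted p = 1.13e-06). P56-NPC exceeded A-iSC by 5.73 times (adjusted p = 0.000699) and P0-NPC exceeded it by 3.09 times (0.00323), and these ratios were 9.04 and 4.88 without A-iSC replicate 3. The 8 neuronal markers summed to 88.3 to 124 FPKM in AST, 51.6 to 68.9 in A-iSC, 214 to 258 in P56-NPC and 858 to 1035 in P0-NPC. Single markers differed in direction. From AST to A-iSC the mean of Stmn2 fell with the sum, from 53.8 to 7.16 FPKM. Against the sum, that of Map2 went from 6.25 to 9.93 and that of Dcx from 0.0833 to 2.86. Tubb3 had a mean of 634 FPKM in P0-NPC and 76.8 in P56-NPC, whereas Map2, Snap25, Syt1 and Gad1 had higher means in P56-NPC. Their part in the Gpm6a levels was not tested.

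**Figure D3:**
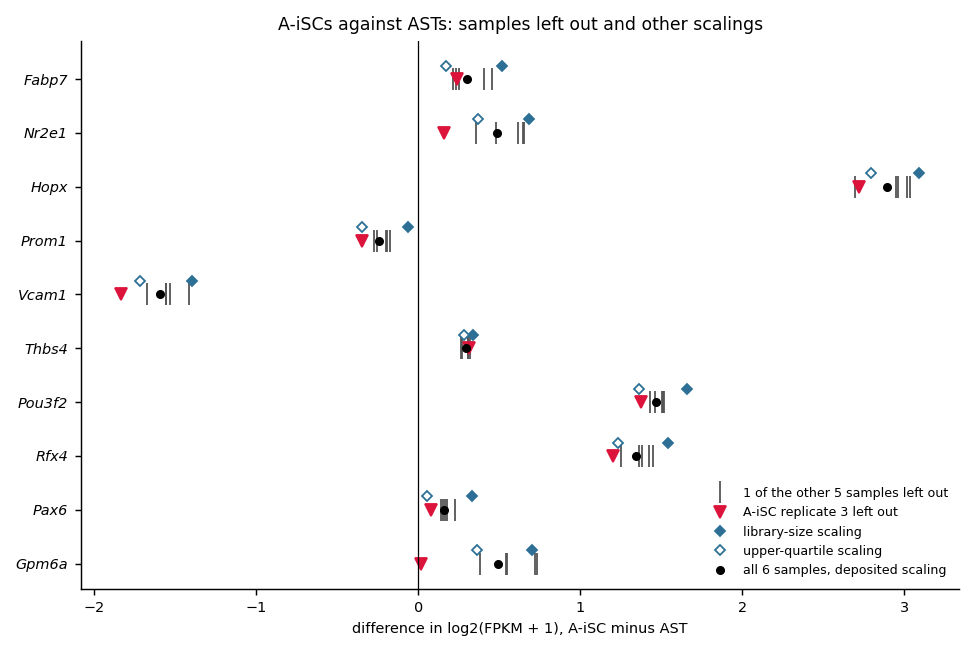
Difference between A-iSC and AST in log2(FPKM + 1) for each gene with all 6 samples (black points), with 1 sample left out (ticks, and a red triangle for A-iSC replicate 3) and under library-size or upper-quartile scaling (diamonds). Gpm6a lies at 0.01 and Nr2e1 at 0.16 without A-iSC replicate 3, whereas Hopx stays at 2.69 or above and Vcam1 at -1.42 or below whichever sample is left out.

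Thbs4, a secreted matrix glycoprotein of astrocytes in the subependymal zone, lies on chromosome 13 from 92751590 to 92794818 on the minus strand. It was low outside P56-NPC. AST samples had 0.0907, 0.0750 and 0.0164 FPKM and A-iSC samples 0.287, 0.345 and 0.272 FPKM, from 5, 5 and 1 fragments and from 19, 27 and 24 fragments. P0-NPC samples had 0.558, 0.689 and 0.684 FPKM and P56-NPC samples 10.1, 10.8 and 12.3 FPKM. All 4 groups were separate from each other. Thbs4 passed the expression filter only through P56-NPC, the group where it was high, so its calls there follow from its admission and the other comparisons were not tested. On the log2 scale P56-NPC exceeded AST by 3.50, P0-NPC by 2.87 and A-iSC by 3.21, and with no filter on any gene the adjusted p were 1.26e-06, 3.79e-06 and 9.78e-06 (limma). With no filter the A-iSC and AST difference had an adjusted p of 0.00481. AST replicate 3, with 1 fragment, lay under the level of 3 fragments in that sample (0.0491 FPKM), so ratios over AST are uncertain. Ratios of summed fragments, scaled to library size and chosen after the values were seen, were 183 (exact 95% interval 102 to 368) for P56-NPC over AST, 5.00 (2.63 to 10.5) for A-iSC over AST and 10.8 (5.89 to 22.1) for P0-NPC over AST. These intervals cover counting error only.

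Of the 9 genes tested between A-iSC and AST, 4 passed the test, Hopx, Pou3f2 and Rfx4 higher and Vcam1 lower. Over all genes 54.8% were called, 25.2% higher and 29.6% lower, so the share of the members called, 44.4%, lay below the background. The median of their log2 differences was 0.48, against -0.06 for all genes. Without A-iSC replicate 3 the median was 0.16, against -0.07 for all genes, and 5 of the 9 were called (3 higher, 2 lower) where 63.1% of all genes were. In P56-NPC against AST all 10 genes were called, 6 higher and 4 lower, where 78.9% of all genes were called (39.1% higher, 39.8% lower). In P0-NPC against AST, 7 of 9 were called, 6 higher and 1 lower, where 79.0% of all genes were called (38.1% higher, 40.9% lower). These 3 comparisons share the AST samples. A-iSC differed from P56-NPC in 7 of 10 genes (4 higher, 3 lower, background 61.0%, or 30.1% higher and 30.9% lower) and from P0-NPC in 4 of 9 (2 higher, 2 lower, background 65.1%, or 31.5% higher and 33.6% lower). P56-NPC differed from P0-NPC in 9 of 10 (6 higher, 3 lower, background 78.8%, or 39.7% higher and 39.0% lower). Leaving out samples or changing the setting left these counts at 4 to 5, 10, 6 to 8, 6 to 9, 4 to 6 and 8 to 10, in the same order. Without Thbs4, which the filter admitted through P56-NPC, P56-NPC differed from AST in 9 of 9 genes, A-iSC from P56-NPC in 6 of 9 and P56-NPC from P0-NPC in 8 of 9. Without A-iSC replicate 3, A-iSC differed from P56-NPC in 9 of 10 genes (background 74.0%) and from P0-NPC in 6 of 9 (background 75.3%).

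In the order of group means, 5 of the 10 genes (Nr2e1, Hopx, Thbs4, Rfx4 and Gpm6a) were highest in P56-NPC, 3 (Fabp7, Prom1 and Pax6) in P0-NPC, 1 (Pou3f2) in A-iSC and 1 (Vcam1) in AST. With library-size scaling, Rfx4 was higher in A-iSC than in P56-NPC, as was Nr2e1, though Nr2e1 was not called (adjusted p = 0.414, limma). That scaling moved the median of all genes to 0.49 in this comparison. Relative to the median, Rfx4 was at -0.09 and Nr2e1 at -0.25. For Nr2e1 no neighbouring groups in the order passed the test. For Pou3f2 all of them did, but its P56-NPC minus P0-NPC difference of 0.36 turned to -0.18 under library-size scaling. Relative to the median of all genes that difference was 0.36 with the deposited scaling and 0.34 with library-size scaling. Hopx ran from P56-NPC to P0-NPC, A-iSC and AST, and the P0-NPC and A-iSC step was not called. Fabp7 and Pax6 ran from P0-NPC through A-iSC and AST to P56-NPC, and of these steps the one to P56-NPC was called. The ratio between highest and lowest group mean was 26.8 for Hopx, 10.2 for Fabp7, 9.07 for Gpm6a and 3.34 or less for the others apart from Thbs4, whose lowest mean rests on 11 fragments.

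Ratios of 2 genes within a sample do not depend on the scaling of the library, and 3 such ratios were chosen after the values were seen. Fabp7 over Hopx was 171 ± 51.4 in AST, 20.3 ± 4.57 in A-iSC, 19.9 ± 1.98 in P0-NPC and 0.934 ± 0.0752 in P56-NPC (SD, n = 3). Rfx4 over Pax6 was 1.17 ± 0.159 in AST, 2.96 ± 0.356 in A-iSC, 0.947 ± 0.106 in P0-NPC and 4.80 ± 0.385 in P56-NPC. Fabp7 over Hopx thus overlapped between A-iSC and P0-NPC, whereas Rfx4 over Pax6 in A-iSC lay between P0-NPC or AST and P56-NPC in every sample. Gpm6a over Fabp7 was 0.115 ± 0.0643 in A-iSC, 0.0942 ± 0.0268 in AST, 0.283 ± 0.0156 in P0-NPC and 5.31 ± 0.0711 in P56-NPC. Its A-iSC mean was 0.0784 without A-iSC replicate 3, below that of AST.

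**Figure D4:**
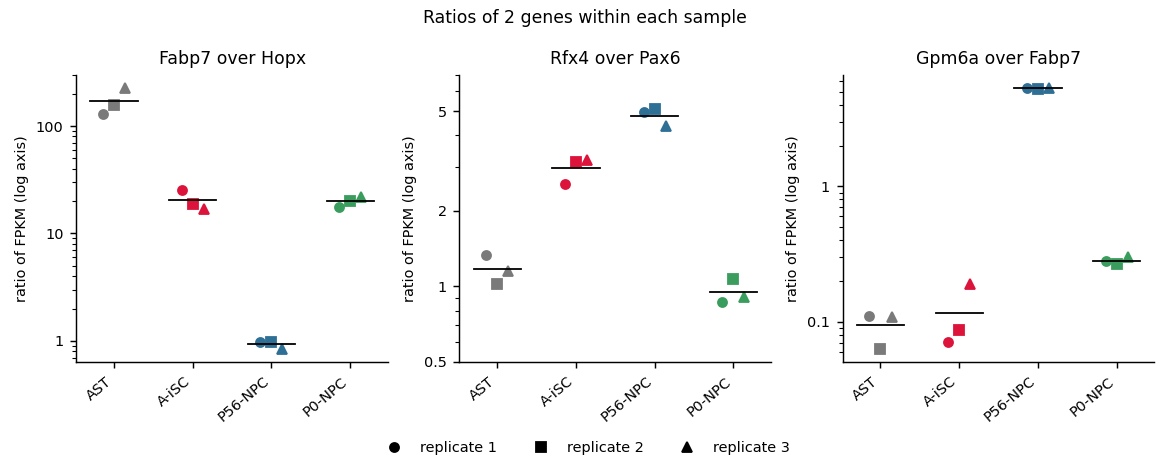
Ratio of FPKM values of 2 genes within each sample on a logarithmic axis, by group, with a point for each of the 3 samples and a line at the mean. Fabp7 over Hopx is 128.7 or above in AST and below 1 in P56-NPC, and Rfx4 over Pax6 is highest in P56-NPC.

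A list of 20 other neural stem and radial glia genes behaved as follows. In A-iSC against AST, 19 were tested and 16 called, 11 higher and 5 lower, with a median log2 difference of 0.62, where 54.8% of all genes were called. Its 6 most abundant genes moved both ways. Slc1a3, a glutamate transporter of astrocytes and radial glia, was at 23.3 ± 3.15 FPKM in AST and 125 ± 70.7 in A-iSC (log2 difference 2.24, adjusted p = 0.00148, limma). Sox2, a pluripotency and neural stem cell factor, was at 135 ± 20.2 FPKM in AST and 208 ± 26.9 in A-iSC (0.62, adjusted p = 0.0171). Tnc, a matrix glycoprotein, fell by 3.53 from 347 ± 25.1 to 29.2 ± 3.77 FPKM (adjusted p = 5.19e-06), and Nes, the intermediate filament nestin, fell by 1.47 (adjusted p = 8.69e-05). Lhx2, a LIM-homeodomain factor, fell by 1.08 (0.000223), and Id4, an inhibitor of basic helix-loop-helix factors, differed by 0.22 without passing the test (0.236). Without A-iSC replicate 3 the Id4 difference was 0.12 (adjusted p = 0.434, limma). In P56-NPC against AST 16 of the 19, or 84.2%, were called (12 higher, 4 lower, background 78.9%), and in P0-NPC against AST 15, or 78.9% (10 higher, 5 lower, background 79.0%). A-iSC differed from P56-NPC in 13, or 68.4% (4 higher, 9 lower, background 61.0%), and from P0-NPC in 15, or 78.9% (7 higher, 8 lower, background 65.1%). Without A-iSC replicate 3, 17 were called against AST (11 higher, 6 lower, background 63.1%), 16 against P56-NPC (4 higher, 12 lower, background 74.0%) and 17 against P0-NPC (8 higher, 9 lower, background 75.3%), and the median difference from P0-NPC turned from 0.15 to -0.19.

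Among the cell type markers, 5 of the 6 astrocyte, 5 of the 6 ependymal and all 6 microglial markers were called higher in A-iSC than in AST, and all 6 cycling genes lower, where 25.2% of all genes were called higher and 29.6% lower. Of the oligodendrocyte markers 3 were tested and 3 were higher, and of the pericyte and fibroblast markers 3 were tested and 3 were lower. Of the 4 oligodendrocyte precursor markers 3 were higher and 1 lower, of 5 neuronal markers tested 2 were higher and 1 lower, of 3 endothelial markers tested 1 was lower, and of 3 intermediate progenitor and neuroblast markers tested 0 were called.

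The 6 astrocyte markers summed to 120 to 134 FPKM in AST, 1124 to 2249 in A-iSC, 2016 to 2216 in P56-NPC and 179 to 229 in P0-NPC, and within A-iSC the highest sum was in replicate 3. Single genes went against these sums. Of the 6, 3 were called higher and 3 lower in P0-NPC than in AST, with Aqp4 at a mean of 30.8 FPKM in AST and 5.6 in P0-NPC. A-iSC exceeded P56-NPC in Gfap (970 and 211 FPKM) and lay below it in Slc1a2 (23.0 and 519 FPKM) and Aldoc (406 and 1167 FPKM). In the group labelled as astrocytes all 6 were expressed at a mean of at least 1 FPKM. The 6 ependymal markers summed to 42.9 to 51.4 FPKM in AST, 70.4 to 84.1 in A-iSC, 274 to 373 in P56-NPC and 89.6 to 113.5 in P0-NPC, and in AST Foxj1 alone had a mean of 43.3 FPKM. The 6 oligodendrocyte markers reached 10825 to 12337 FPKM in P56-NPC against 75.9 or less in the other groups, with Mobp at 0 in all AST samples. The 6 microglial markers summed to 1084 to 1495 FPKM in A-iSC against 96.5 to 126.8 in AST, 434.7 to 458.1 in P56-NPC and 63.6 to 73.5 in P0-NPC. C1qa carried the A-iSC sum with a mean of 1029 FPKM, whereas P2ry12 (7.3 and 60.2 FPKM) and Tmem119 (16.8 and 52.2 FPKM) were lower in A-iSC than in P56-NPC. The 6 cycling genes were at 111 to 120 FPKM in AST, 19.0 to 21.1 in A-iSC, 6.91 to 10.2 in P56-NPC and 41.0 to 53.7 in P0-NPC. The 4 oligodendrocyte precursor markers summed to 29.4 to 30.8 FPKM in AST, 43.8 to 46.3 in A-iSC, 135.8 to 139.7 in P56-NPC and 20.6 to 26.8 in P0-NPC, most of it Olig2 in AST (26.7) and A-iSC (35.9). The 6 markers of intermediate progenitors and neuroblasts summed to 107 to 125 FPKM in AST, 118 to 178 in A-iSC, 59.2 to 62.4 in P56-NPC and 375 to 466 in P0-NPC. Cd24a made up most of that sum, with a mean of 104 FPKM in AST and 124 in A-iSC, whereas Eomes, Neurog2 and Tbr1 had means of 0.495 FPKM or less in both. Their part in the levels of the 10 genes was not tested.

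**Figure D5:**
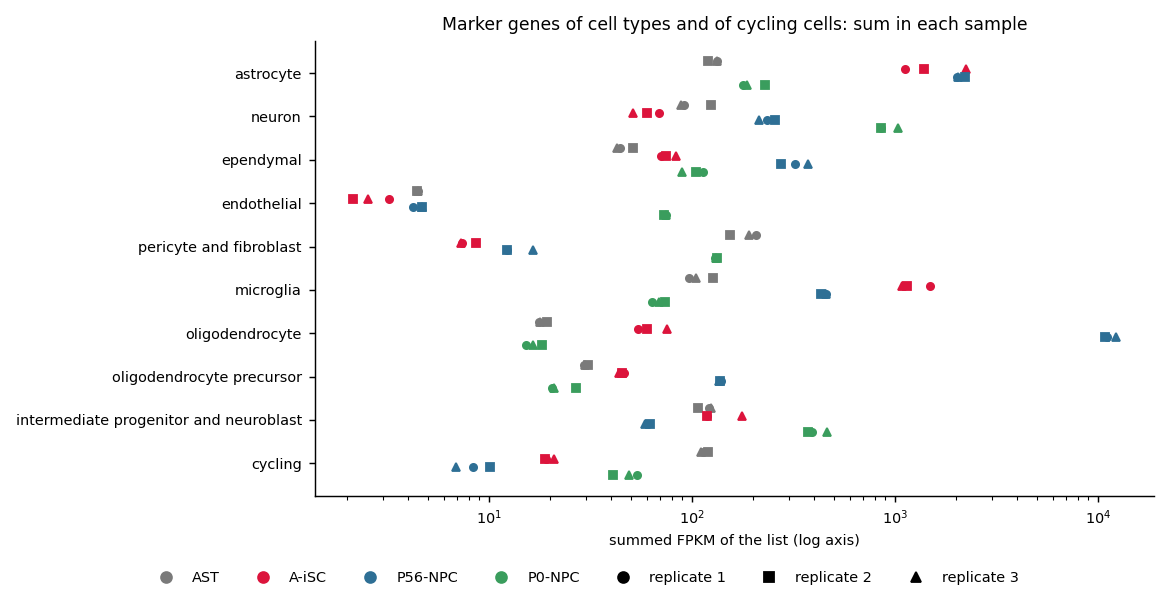
Summed FPKM of each cell type marker list by sample and group on a logarithmic axis. The oligodendrocyte list is at 10825 FPKM or above in P56-NPC, and the astrocyte list is at 1124 FPKM or above in A-iSC and P56-NPC and at 229 or below in AST and P0-NPC.

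The genes with the most similar pattern over the 12 samples were named by the root-mean-square difference of centred log2(FPKM + 1). They were Scg3 for Hopx (0.261), followed by Cspg5 and Dynlrb2, and Map2 for Gpm6a (0.207), followed by Pogk and Nrarp. For Fabp7 they were Islr (0.474), Tead2 and Bbc3, for Vcam1 Fkbp9 (0.164), Lratd2 and Tmem97, and for Rfx4 Tlr9 (0.149), Entpd5 and Entpd1. Pou3f2 was most like Amz1 (0.114), Thbs4 most like Itgb4 (0.114), Nr2e1 most like Gna13 (0.130), Prom1 most like Slc39a11 (0.105) and Pax6 most like Dennd1b (0.0662). Among the 10 genes themselves the closest pair was Prom1 and Pax6 (0.270), followed by Pou3f2 and Rfx4 (0.382). The measure is not scaled to how much a gene varies, so flat genes come out close and values of different genes do not compare. Around its own mean Pax6 varied by 0.230, less than its difference from Prom1, whereas Hopx varied by 1.61. The samples of a group share their source, so these likenesses are descriptions.

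Exons of 3 genes overlapped an antisense gene, with 412 shared bases for Hopx and Hopxos, 424 for Prom1 and Gm16401, and 61 for Vcam1 and Gm43109. Strand of counting was not given in the sources used here, so reads of these pairs cannot be told apart. The antisense genes had a mean of 0.370 FPKM or less in every group.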

How the data were processed

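RNA-seq was made from the 12 samples, and the authors deposited 1 table of FPKM per gene, with 12 sample columns. Bowtie 0.12.2 and mm8 are named in the submitters' processing notes, but of the 55154 genes found in GENCODE M21 as well, 54899 lay at that release's position, so positions here are GRCm38. The counter and annotation release were not given in the sources used here. All FPKM values were whole multiples of 1 fragment (100%, tolerance 0.01), which gave fragments and library sizes. Differences were tested with limma 3.58.1 in R 4.3.3 (moderated, with trend) on log2(FPKM + 1), pairwise, for genes with a mean of at least 1 FPKM in 1 or more of both groups, and genes with a Benjamini-Hochberg adjusted p under 0.05 were called. The study tested with DESeq2, which was not run here, and limma-voom on recovered fragments was the alternative based on counts. On simulated A-iSC and AST data with 12697 genes, 194 of 200 changed genes were found, 0 in the wrong direction, with 29 unchanged genes called. Of the 50 genes with the smallest simulated fold, 44 were found. The simulation changed only those 200 genes, by large folds, with the same dispersion for every gene and no outlying sample. Its counts therefore do not carry over to small differences or to a sample such as A-iSC replicate 3. The genes were the 10 listed, plus the 6 most abundant of 20 other stem genes and 3 most similar genes each, and members and lists were chosen with earlier results of these data known. The alternatives were library-size and upper-quartile scaling (75th percentile of fragments), another pseudocount (0.1), no filter, limma-voom, all 4 groups in 1 model, the replicate block and leaving out each sample. Replicate numbers were not treated as pairs. Confidence intervals of log2 differences are from limma and reflect the spread between samples, whereas the exact intervals of the Thbs4 fragment ratios and the floors of 3 fragments cover counting error only.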

Additional observations from a re-analysis of the deposited data

How the results depend on the processing

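Over 60 results (10 genes in 6 comparisons), limma-voom and a pseudocount of 0.1 changed no call or direction. Thbs4 was under the filter in A-iSC against AST, P0-NPC against AST and A-iSC against P0-NPC. Its call could not change there in any setting that kept the filter. Scaling to the library size shifted the median log2 difference of all genes from 0.03 to 0.49 in A-iSC against P56-NPC, from 0.01 to -0.53 in P56-NPC against P0-NPC, from -0.03 to -0.34 in P56-NPC against AST, from -0.07 to 0.21 in P0-NPC against AST and from -0.06 to 0.13 in A-iSC against AST. The share of calls that were higher moved from 49.4% to 74.5%, 50.4% to 26.7%, 49.5% to 37.7%, 48.2% to 59.4% and 46.0% to 60.4%. It turned A-iSC minus P56-NPC to 0.25 for Nr2e1, 0.28 for Vcam1 and 0.40 for Rfx4, and P56-NPC minus P0-NPC to -0.41 for Vcam1 and -0.18 for Pou3f2. Relative to the median of all genes, these were -0.25, -0.21, -0.09, 0.12 and 0.34. Upper-quartile scaling turned P0-NPC minus AST to -0.029 for Nr2e1 and -0.031 for Rfx4, where the median of all genes moved from -0.07 to -0.16. Relative to that median, Nr2e1 and Rfx4 were both at 0.13. This scaling also shifted the A-iSC and AST median to -0.17. Leaving out AST replicate 2 turned P0-NPC minus AST to -0.059 for Nr2e1 and -0.036 for Rfx4 (range for Nr2e1 -0.059 to 0.20). The A-iSC minus P0-NPC difference of Vcam1 became 0.003 without A-iSC replicate 1, 0.12 without replicate 2 and 0.01 without P0-NPC replicate 1 (range -0.30 to 0.12). Of these reversed results, Pou3f2 had been called before, and Rfx4 (adjusted p = 0.0427, limma) and Vcam1 in P56-NPC against P0-NPC (0.00386) were called after. Library-size scaling also ended the call of Nr2e1 in P56-NPC against P0-NPC (0.11, adjusted p = 0.144) and made calls of Fabp7 in A-iSC against AST (0.51, 0.0459) and against P0-NPC (-0.44, 0.0359) and of Rfx4 in P0-NPC against AST (0.29, 0.0449). Same-numbered A-iSC and AST samples correlated at -0.41, 0.35 and 0.45, so not every pair was above 0.1 and the numbers were not taken as pairs. With the replicate block 1 of the 60 results changed call, Nr2e1 in A-iSC against AST (0.48, adjusted p = 0.0378, limma). The cause of the changes was not tested.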
